A study of Mus musculus with 6 samples.

Results

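C5 and V7 are 2 clonal lines derived from EL4, a mouse T cell lymphoma line, and they were compared with each other here because they share every label except their spread as tumours. C5 is labelled PMA-resistant, adherent to plastic and highly metastatic. V7 is labelled PMA-resistant, adherent to plastic and metastatic. PMA is a phorbol ester that stands in for diacylglycerol. The members were the 2 C5 arrays and the 2 V7 arrays, 4 of the 6 arrays of the study, chosen by the line named in their labels. The other 2 arrays came from WT2, an EL4 line labelled PMA-sensitive, non-adherent and non-metastatic, which served in the shared estimate of error and as a level to set beside the pair. Cells of all lines stayed overnight in medium without serum and received no other treatment. Each line gave 2 parallel aliquots of cells, called aliquot 1 and aliquot 2 below, and each line is a single clone, so a difference between the lines cannot be told apart from a difference between 2 clones of any kind.

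Spread of a tumour from one organ to another requires cells to leave, survive in the circulation, attach and grow, and integrins, G protein-coupled receptors and matrix-modifying enzymes are all known to take part. Phorbol esters bind the C1 domains of protein kinase C enzymes and of RasGRP exchange factors, which pass the signal to the Ras and ERK pathway. EL4 cells carry a T cell receptor complex, and thymic T cell precursors are known to pass through a stage in which they rearrange receptor genes.

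Total RNA was labelled with biotin and hybridised to Affymetrix mouse arrays. A probe set is a group of short probes against one transcript, and its signal is a linear intensity that the authors scaled to a trimmed mean of 125 on every array. Signals were analysed as log2(signal + 5.03), and every log2 change below is on that scale as C5 minus V7, so that the change of a dim probe set is understated. A probe set was called when limma's moderated test gave a Benjamini-Hochberg adjusted p below 0.05 and the change was at least 2-fold. The median signal was 17.0 and 17.8 in the C5 aliquots and 15.8 and 15.9 in the V7 aliquots. Gapdh control probes, whose 3' over 5' ratio is a sign of RNA quality, gave 1.15 and 0.829 in C5 and 0.960 and 0.887 in V7, and the lines overlapped. Actin control probes gave higher ratios, 2.91 and 1.87 in C5 and 2.50 and 2.04 in V7, and the lines overlapped there too. In WT2 the ratios were 1.51 and 1.77 for Gapdh, above both other lines, and 1.83 and 2.04 for actin. Of the T cell markers, Cd3e, a chain of the T cell receptor complex, had a signal of 1162 and 901 in C5, against 1048 and 917 in V7. Cd247, another chain of that complex, stood at 2.53 and 1.89 in C5, against 0.585 and 1.53 in V7, and the adhesion receptor Cd2 at 6.79 and 0.934 in C5, against 0.903 and 7.25 in V7, near or below the 25th percentile of all signals, 5.03. Cd5, the last of the 4 tested T cell markers, had 52.5 and 39.8 in C5, against 108 and 149 in V7 and was not called (change −1.37, adjusted p = 0.0517). Named probe sets for defining markers of B cells, macrophages, epithelium and erythroid cells were not available in the tables used for names, so those types were not checked here.

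The pair of lines differed in few transcripts. Of 27010 probe sets tested, 27 were called (0.1%), of which 8 were higher in C5 (0.0296%) and 19 lower (0.0703%). They belonged to 17 named genes, 5 higher and 12 lower, and to 5 probe sets without a single gene name. At an unadjusted p below 0.05, more tested probe sets were higher than lower, 983 (3.64%) against 771 (2.85%). The signals of the lines did not overlap in any of the 27, as in 38.9% of all tested probe sets. The largest rises in C5 were in the collagen-modifying enzyme P3h2 and in Rgs18, a brake on G protein signalling, and the largest fall was in Arhgap29, a GTPase activating protein. Over all tested probe sets the median change was 0.02 on the log2 scale and 96.4% lay within 2-fold. Single arrays of different lines differed about as much as aliquots of one line: the median absolute difference was 0.26 between the C5 aliquots, 0.19 between the V7 aliquots and 0.24 to 0.27 between single C5 and V7 arrays. The 95% interval lay within 2-fold either way for 15545 probe sets (57.6%), and for the others, the called ones aside, a change of that size was neither called nor bounded.

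The number of calls changed whichever array was left out. It was 6 without C5 aliquot 1 (4 higher and 2 lower in C5), 7 without C5 aliquot 2 (5 higher, 2 lower), 5 without V7 aliquot 1 (5 higher, 0 lower) and 5 without V7 aliquot 2 (4 higher, 1 lower). It was 65 without WT2 aliquot 1 (25 higher, 40 lower) and 68 without WT2 aliquot 2 (24 higher, 44 lower). Whether more probe sets were higher or lower thus depended on the arrays used. Both probe sets of Rgs18 and those of P3h2 and Klra7 were called in each of these 6 fits, and the other 23 lost their call in at least 1 of them. No label states that the 2 aliquots of a line were grown apart, and the p-values therefore reflect variation from aliquot to aliquot alone, which could be purely technical. In bulk RNA, fewer cells with a transcript and less of it per cell cannot be told apart.

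**Figure D1:**
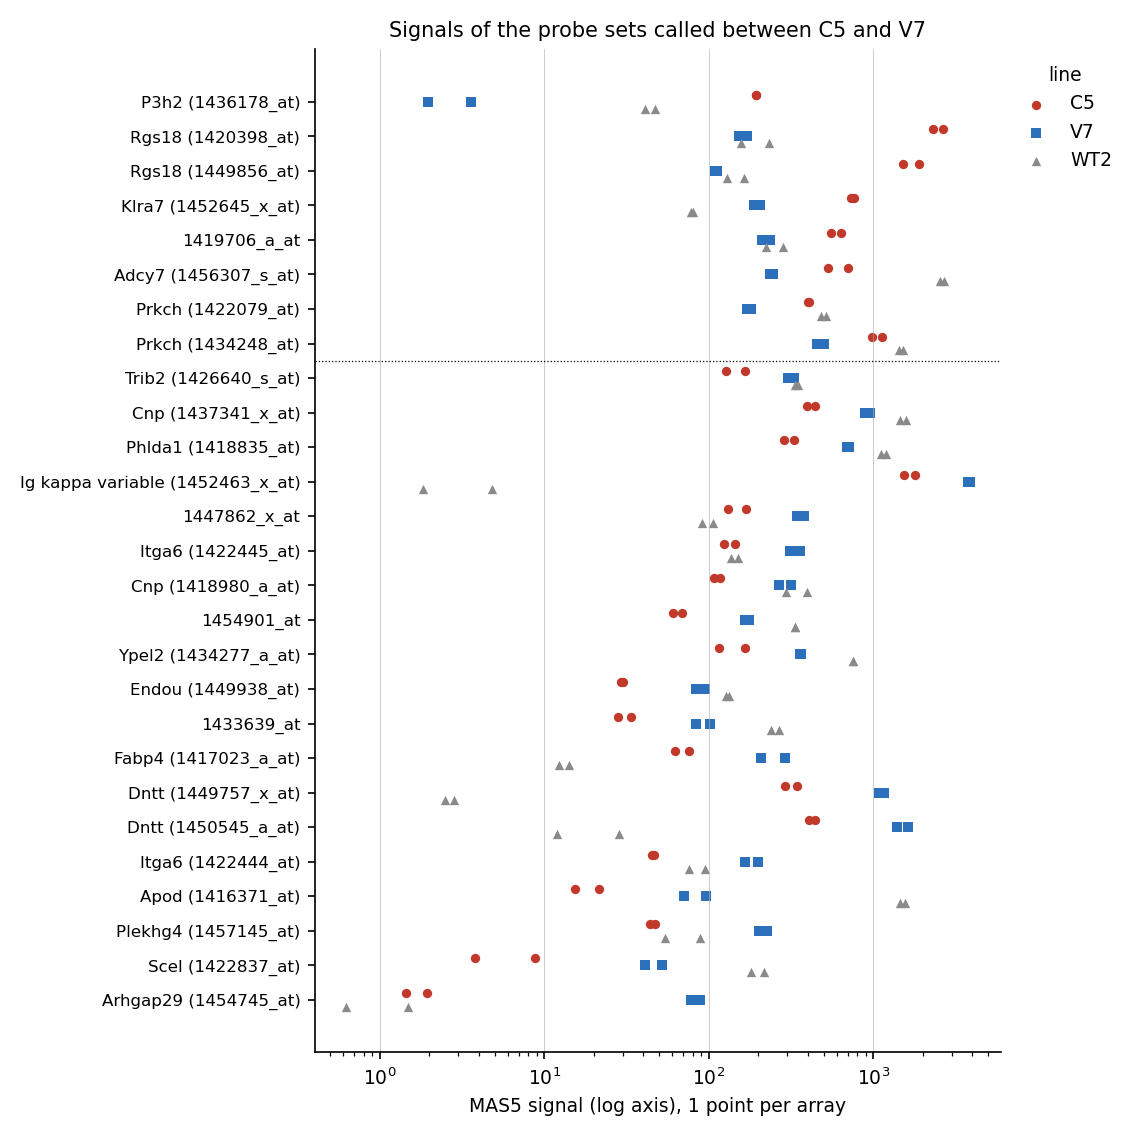
Signals of the 27 called probe sets on a log axis, with 1 point per array for C5 (red circles), V7 (blue squares) and WT2 (grey triangles); probe sets above the dotted line were higher in C5 and those below it lower. In each row both C5 points lie on one side of both V7 points, while WT2 falls outside the pair in some rows and between them in others.

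Rgs18 rose in C5. It speeds GTP hydrolysis by G protein alpha subunits and is known from platelets and other blood cells. Its brighter probe set had a signal of 2647 and 2320.1 in C5, against 153 and 169.9 in V7. The other had 1899 and 1516 in C5, against 109 and 112 in V7. Both C5 aliquots stood far above both V7 aliquots on each, and WT2 was close to V7 at 157 and 231 on the brighter and 129 and 164 on the other. The log2 changes were 3.90 (SE 0.18) and 3.88 (SE 0.18), each with a limma adjusted p of 2.07e-06. Of the 6 named and tested genes of the list of G protein signalling regulators, 1 was called. The share was 0.1% over all tested probe sets and 1.14% over those with a gene name. Names exist where the authors had picked a probe set as differing between lines on these arrays. This list was also drawn up with earlier results known, so such counts are not independent evidence, here or in the lists below. The not called members nearest to a call were Rgs2, another GTPase activator, at 0.62 (adjusted p = 0.212), Gnai3, an inhibitory G protein alpha subunit, at −0.29 (adjusted p = 0.619), and Rgs10 at −0.43 (adjusted p = 0.659). The list's median change was 0.28.

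Adcy7, an adenylate cyclase that makes cyclic AMP, rose in C5 and belongs to none of the lists. It had a signal of 698 and 531 in C5, against 237 and 246 in V7 on its brightest probe set, whose probes are shared between transcripts. The C5 aliquots did not overlap V7, and both lines were far below WT2 at 2547 and 2701. The change was 1.32 (SE 0.15, adjusted p = 0.00596). The other 2 probe sets of the gene had changes of 1.13 and 0.97 and were not called (adjusted p = 0.0994 and 0.497).

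Prkch, the eta isoform of protein kinase C, binds diacylglycerol and phorbol esters. Its 2 probe sets had signals of 1132 and 983 in C5, against 504 and 455 in V7, and of 405 and 399 in C5, against 171 and 181 in V7. C5 was higher on both, by 1.13 (SE 0.13, adjusted p = 0.00596) and 1.17 (SE 0.15, adjusted p = 0.0108). Of 11 named and tested genes of phorbol ester and diacylglycerol signalling, Prkch alone was called, against 1.14% of all tested probe sets with a gene name. The median change of the list was −0.21. Plcb1, a phospholipase C that produces diacylglycerol, had 2.17 and 9.98 in C5, against 59.2 and 47.2 in V7. Its change of −2.48 (95% interval −3.79 to −1.16) was not called, with an adjusted p of 0.233. Rasgrp2, an exchange factor for Rap proteins, was at −0.65 (adjusted p = 0.269) and Prkcb at −0.81 (adjusted p = 0.751). Prkcb was dim in both lines, with a mean of 5.33 in C5 and 11.5 in V7, against 1289 in WT2. Rasgrp1, a phorbol ester receptor that activates Ras, had signals of 504 and 478 in C5, against 486 and 457 in V7. The lines overlapped there, and the 95% interval of the change was −0.21 to 0.33. Prkcq, the theta isoform of protein kinase C, was at −0.42 (95% interval −0.92 to 0.07).

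Phlda1, a pleckstrin homology domain protein whose transcription follows ERK signalling, was lower in C5. Its signal was 329 and 286 in C5, against 693 and 707 in V7, a change of −1.18 (SE 0.13, adjusted p = 0.00596). The lines did not overlap. It was the 1 called gene among 7 named and tested ERK targets and feedback genes, whose median change was 0.18. Of all tested probe sets with a gene name, 1.14% were called. Spry1, an inhibitor of the pathway, had 15.3 and 2.19 in C5, against 18.6 and 19.9 in V7 (adjusted p = 0.783). The related Spred2 was at 0.42 (adjusted p = 0.805) and the AP-1 subunit Fosl2 at 0.61 (adjusted p = 0.854), and none of these 3 was called. Trib2, a pseudokinase that brings proteins to a ubiquitin ligase, had 165 and 128 in C5, against 329 and 301 in V7 on a probe set with shared probes. That fall of 1.09 on the log2 scale was close to the limit of the test (SE 0.17, adjusted p = 0.0468).

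**Figure D2:**
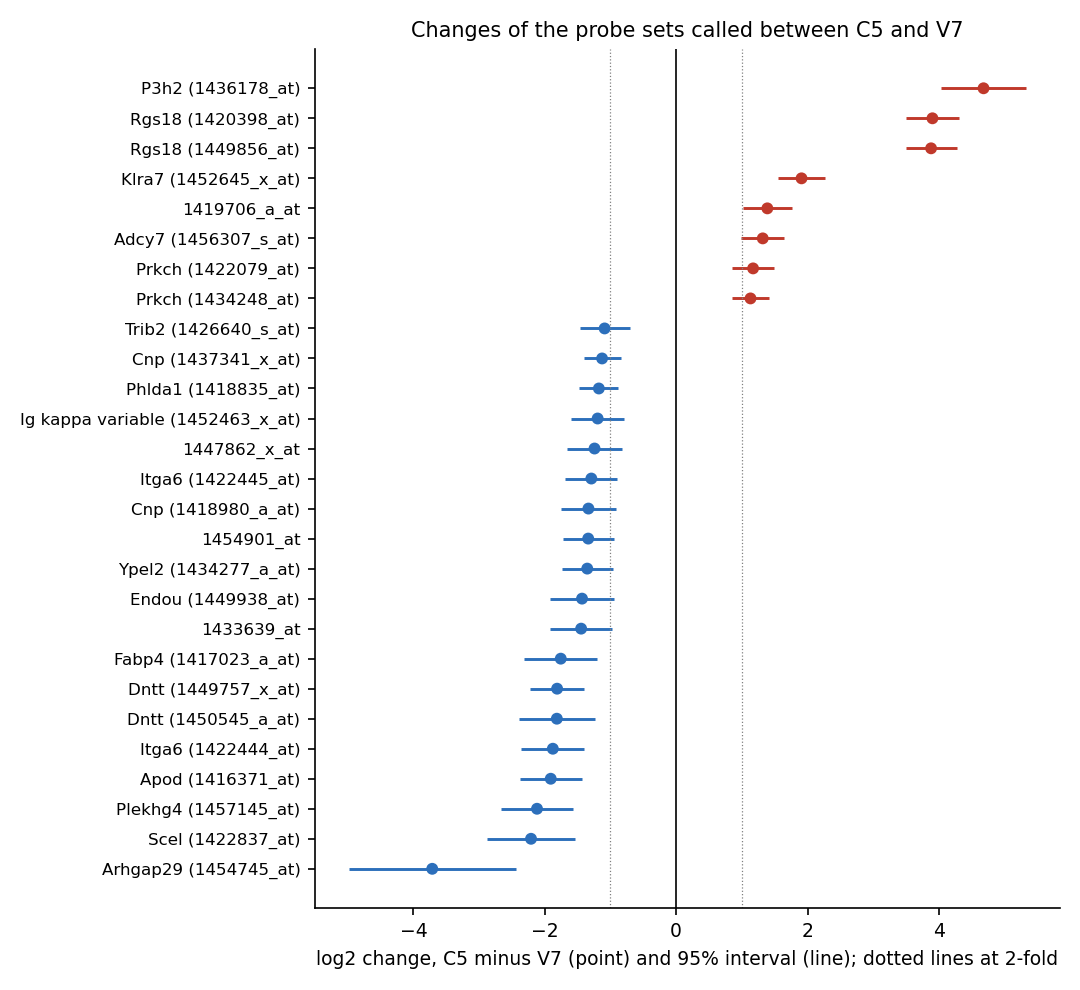
Log2 change of C5 minus V7 for the 27 called probe sets, with points for the estimates and lines for their 95% intervals, in red where C5 was higher and blue where it was lower. P3h2 and Rgs18 stand apart on the right at 3.88 to 4.68, and Arhgap29 has the widest interval, −4.98 to −2.44.

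In the lists of collagens and collagen-modifying enzymes and of integrin subunits, 1 of 2 tested genes each was called, P3h2 higher and Itga6 lower in C5. Of all tested probe sets with a gene name, 1.14% were called, and 2 tested genes are too few to read a share from. The list with P3h2 was drawn up with earlier results known. P3h2, deposited as Leprecan-like 1, hydroxylates prolines of collagen chains in the endoplasmic reticulum. Its signal was 194 and 193 in C5, against 3.58 and 1.96 in V7. The C5 aliquots were nearly equal, and both V7 aliquots lay below the added constant of 5.03, so the size of the change, 4.68 (SE 0.29, adjusted p = 3.3e-05), depends on that constant. The other named and tested collagen gene, P4ha2, a catalytic subunit of another collagen prolyl hydroxylase, had 172 and 181 in C5, against 149 and 131 in V7 (change 0.33, adjusted p = 0.913).

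Itga6 encodes the alpha 6 chain of laminin-binding integrins. It was lower in C5 on both of its probe sets. The brighter had 123 and 144 in C5, against 309 and 358 in V7 (change −1.29, SE 0.18, adjusted p = 0.0216). The dimmer had 45.1 and 46.6 in C5, against 166 and 199.5 in V7 (change −1.88, SE 0.22, adjusted p = 0.00641). No C5 aliquot reached a V7 aliquot on either, as on 17.4% of all tested probe sets. Itgae, the other named and tested integrin subunit, overlapped between the lines at 48.0 and 63.0 in C5, against 36.9 and 73.3 in V7.

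Arhgap29, Plekhg4 and Scel were lower in C5. Arhgap29, a GTPase activating protein, had 1.93 and 1.45 in C5, against 88.8 and 77.7 in V7. Both C5 signals were below the added constant, as were those of WT2 (0.625 and 1.48), so V7 alone had a clear signal. The change was −3.71 with an SE of 0.58 (adjusted p = 0.0403), and across the settings tried it ran from −4.97 to −2.36. Plekhg4, a protein with a pleckstrin homology domain, had 46.9 and 44.1 in C5, against 203 and 226 in V7. There too V7 stood above both other lines, with a change of −2.12 (SE 0.25, adjusted p = 0.00654). Scel, or sciellin, a precursor of the cornified envelope of skin, had 3.80 and 8.73 in C5, against 51.6 and 40.9 in V7. Its signal was low in C5 and highest in WT2 at 181 and 217, and the change was −2.21 (SE 0.31, adjusted p = 0.0216).

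None of the 6 tested genes of other adhesion receptors, the 7 of focal adhesions and membrane linkers, the 8 of matrix proteins and proteases or the 7 of the actin and myosin cytoskeleton was called by limma. At an unadjusted p below 0.05 there were 0, 0, 2 and 1 of them, all higher in C5, against 3.64% of all tested probe sets. The direction holds for the listed members only. Outside the lists, Thbs2 (−1.10 and −1.20 on 2 probe sets), the adhesion molecule Icam4 (−0.95, SE 0.22) and Fibulin 2 (−1.50, SE 0.47) were lower in C5, and none was called. The median changes of the lists of other adhesion receptors, focal adhesions, matrix and cytoskeleton were 0.04, 0.07, 0.03 and −0.03. Cd44, a hyaluronan receptor, had 60.6 and 86.1 in C5, against 47.5 and 57.7 in V7 (change 0.43, 95% interval −0.08 to 0.95). The focal adhesion kinase Ptk2 had 232 and 201 in C5, against 179 and 185 in V7 (95% interval −0.20 to 0.69), and the related kinase Ptk2b had 53.1 and 36.7 in C5, against 41.3 and 26.9 in V7 (95% interval −0.26 to 0.97). Spp1, the secreted matrix protein osteopontin, stood at 95.7 and 113 in C5, against 47.8 and 71.3 in V7. Its lines did not overlap, and its change of 0.78 was not called (adjusted p = 0.545). The matrix protease Adamts1 was at 0.46 (adjusted p = 0.708) and Tpm4, a tropomyosin, at 0.30 (adjusted p = 0.678).

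Among lymphoid genes, a killer cell receptor was higher and a gene of receptor rearrangement lower in C5. Klra7 belongs to the Ly49 receptors, which natural killer cells use to read class I molecules. Its brightest probe set had 735 and 764 in C5, against 203 and 189 in V7, with a change of 1.91 (SE 0.16, adjusted p = 0.000561). The other 2 probe sets under that name gave smaller changes of 0.54 and 0.46 and were not called (adjusted p = 0.571 and 0.939). All 3 have probes shared between transcripts of a gene family, so which member was measured is uncertain.

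Klrb1d, deposited as member 1D of killer cell receptor subfamily B, was not called on any of its 5 probe sets. Its brightest had 660.4 and 585 in C5, against 229.6 and 232 in V7. C5 lay above V7 without overlap on all 5 probe sets, with changes of 1.20 to 1.47 and adjusted p-values of 0.0905 to 0.452, where 21.5% of all tested probe sets had both C5 signals above both V7 signals. Probe sets of one gene measure the same RNA and are not replicates. On 1420421_s_at and 1422066_x_at the probes are shared between transcripts. Gzma, a serine protease of cytotoxic granules, had 249 and 334 in C5, against 130.2 and 108 in V7 (change 1.24, adjusted p = 0.108). Of the 5 tested genes of granule proteases and killer cell receptors, Klra7 alone was called, against 1.14% of all tested probe sets with a gene name. The protease Ctsg was at −0.48 (adjusted p = 0.837). The median change of the 5 was −0.07. Klrb1d is in none of the lists.

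Dntt adds bases without a template where antigen receptor gene segments are joined. Its brightest probe set had 440.2 and 409 in C5, against 1635 and 1389.9 in V7, a change of −1.82 (SE 0.26, adjusted p = 0.0251). A second, with shared probes, had 341 and 290.0 in C5, against 1159 and 1079 in V7, a change of −1.81 (SE 0.19, adjusted p = 0.00429). The third was not called, with a change of −1.42 (adjusted p = 0.102). The C5 aliquots lay below the V7 aliquots on all 3, as on 17.4% of all tested probe sets. The 3 measure the same RNA and are not replicates. WT2 averaged 20.2 ± 11.6 (SD, n = 2) on the brightest.

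The rest of the early T cell and Notch list, 5 of 6 tested genes, was not called, where 1.14% of tested probe sets with a gene name were called. Its nearest members were Id3, an inhibitor of E proteins, at −1.19 (adjusted p = 0.589), Ikzf3 at −0.26 (adjusted p = 0.894) and the T cell transcription factor Gata3 at −0.12 (adjusted p = 0.969). None of 9 tested T cell identity genes was called, with a median change of −0.04, and 1 was lower at an unadjusted p below 0.05, against 2.85% of all tested probe sets. Cd5, a receptor that dampens T cell receptor signals, came closest, with the values given above (SE 0.22), and its lines did not overlap. Icos, a costimulatory receptor, was at −0.53 (adjusted p = 0.915) and the adaptor Fyb at −0.47 (adjusted p = 0.938). Cd247, Cd2, Cd6, Cd27, Fyb and Icos had mean signals of 1.06 to 14.3 in C5 and V7, against 46.3 to 2561 in WT2. The filter averaged the arrays of all lines, so such dim genes were tested. The lack of a call does not show that they were unchanged.

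Cytokines and their receptors held no call among 11 tested genes, with 1 higher and 2 lower at an unadjusted p below 0.05, against 3.64% and 2.85% of all tested probe sets, and a median of −0.11. Il27ra, a receptor chain for interleukin 27, had 317 and 279.5 in C5, against 140.4 and 134 in V7 (change 1.09, adjusted p = 0.203). Il7r, the interleukin 7 receptor chain that T cell precursors need, had 775 and 586 in C5, against 1241 and 1169.9 in V7 (change −0.83, adjusted p = 0.212). Neither gene overlapped between the lines, as was so for 38.9% of all tested probe sets. The interferon gamma receptor chain Ifngr1 was at −0.44 (adjusted p = 0.599). Of 2 tested chemokine receptors, none was called. Cxcr6 had 54.1 and 52.0 in C5, against 31.3 and 16.8 in V7 (change 1.04, adjusted p = 0.451), and Ccr7 was below 5.03 in both lines. Another probe set deposited under the name of Cxcr6 had no symbol and so stood outside the list. It averaged 67.7 in C5 and 28.8 in V7 and was not called (change 1.10, limma adjusted p = 0.227). Of the 2, Cxcr6 had an unadjusted p below 0.05, as had 3.64% of all tested probe sets in that direction.

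Of 7 tested genes of lipid handling, Apod and Fabp4 fell in C5, none was called higher, and the median was −0.02. Of all tested probe sets with a gene name, 1.14% were called, and this list was drawn up with earlier results known. Apod, a secreted lipocalin, had 15.3 and 21.6 in C5, against 96.2 and 70.5 in V7. Both lines were far below WT2 at 1451 and 1555, and C5 was lowest (change −1.91, SE 0.22, adjusted p = 0.00596). Fabp4, a fatty acid carrier of fat cells and macrophages, had 62.7 and 76.0 in C5, against 207 and 290.1 in V7 on its brighter probe set (change −1.76, SE 0.26, adjusted p = 0.0251). Its dimmer probe set had 41.1 and 48.4 in C5, against 151 and 169 in V7, with a similar change of −1.73 that was not called (adjusted p = 0.0834). In WT2 Fabp4 was at 12.3 and 14.2 on the brighter one. The lipid phosphatase Plpp2 was at 0.72 (adjusted p = 0.804), Lipa at −0.15 (adjusted p = 0.961) and Abcg1 at 0.03 (adjusted p = 0.995).

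**Figure D3:**
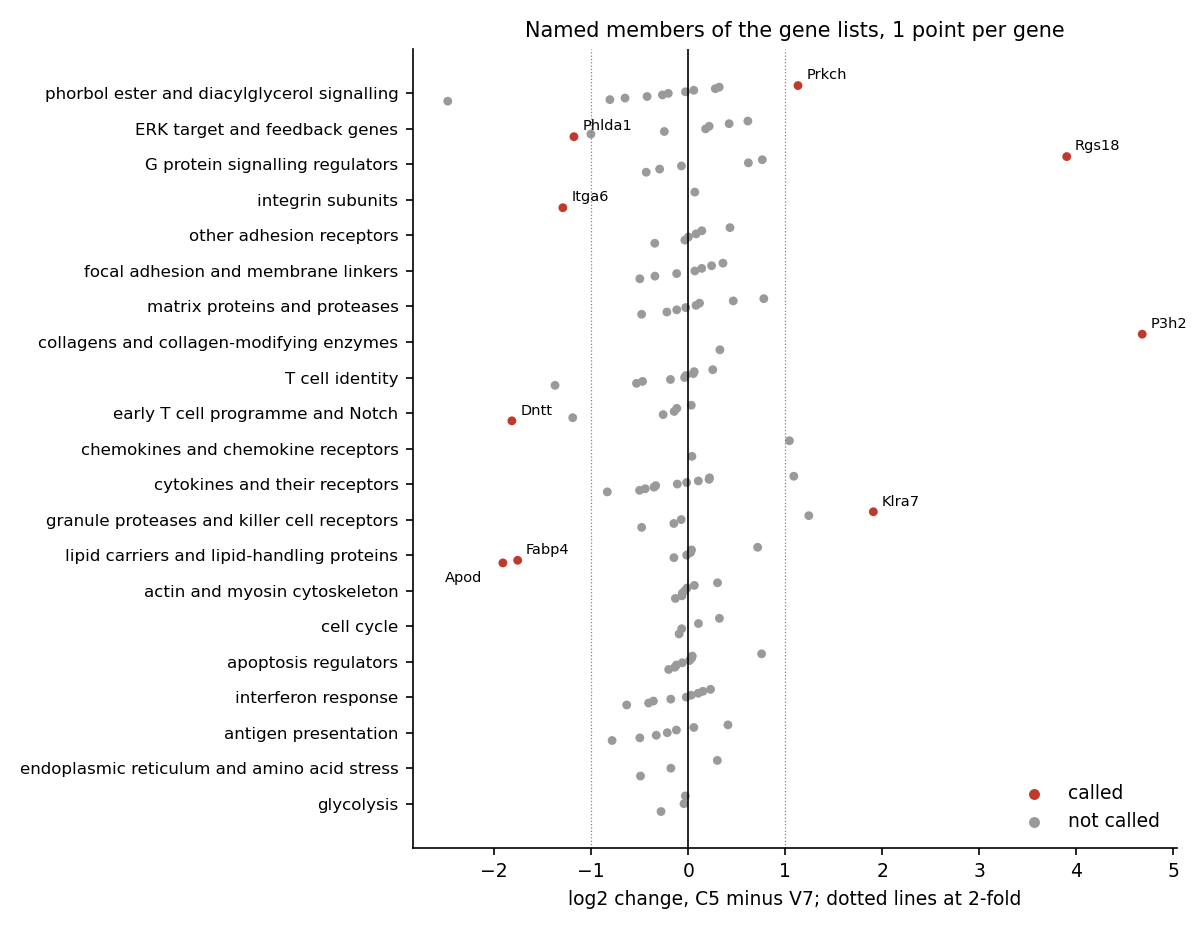
Log2 change of C5 minus V7 for each named and tested member of 21 gene lists, 1 point per gene (the brightest probe set given its symbol), with called genes in red and labelled and the others in grey. Most points lie between the dotted lines at 2-fold, and no list has more than 2 called members.

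The remaining called genes belong to no list. Cnp, an enzyme abundant in myelin-forming cells, was lower in C5 on both probe sets. The brighter, with shared probes, had 441 and 396 in C5, against 955 and 885 in V7 (change −1.13, SE 0.13, adjusted p = 0.00596). The dimmer had 117 and 107 in C5, against 268 and 314 in V7 (change −1.34, SE 0.19, adjusted p = 0.0217). Neither overlapped between the lines, and 17.4% of all tested probe sets had both C5 signals below both V7 signals.

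Ypel2, of the Yippee family, had 166 and 115 in C5, against 359.7 and 363 in V7 (change −1.35, SE 0.18, adjusted p = 0.0153). Endou, an endoribonuclease deposited as Placental protein 11 related, was called on its dimmer probe set at 29.3 and 30.1 in C5, against 94.6 and 83.3 in V7 (change −1.43, SE 0.22, adjusted p = 0.0403). Its brighter probe set varied more between the C5 aliquots, at 19.5 and 55.6 in C5, against 90.5 and 71.1 in V7, and was not called (change −1.15, adjusted p = 0.585). Of the called probe sets without a gene name, 1419706_a_at was higher at 638 and 549.7 in C5, against 210.1 and 237 in V7 (change 1.39, adjusted p = 0.00912). The 2 largest falls among them were in 1433639_at, deposited as a RIKEN cDNA, at 33.5 and 27.9 in C5, against 101 and 83.5 in V7 (change −1.45, adjusted p = 0.0331), and in 1454901_at at 60.4 and 68.8 in C5, against 166 and 175 in V7 (change −1.34, adjusted p = 0.0159).

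**Figure D4:**
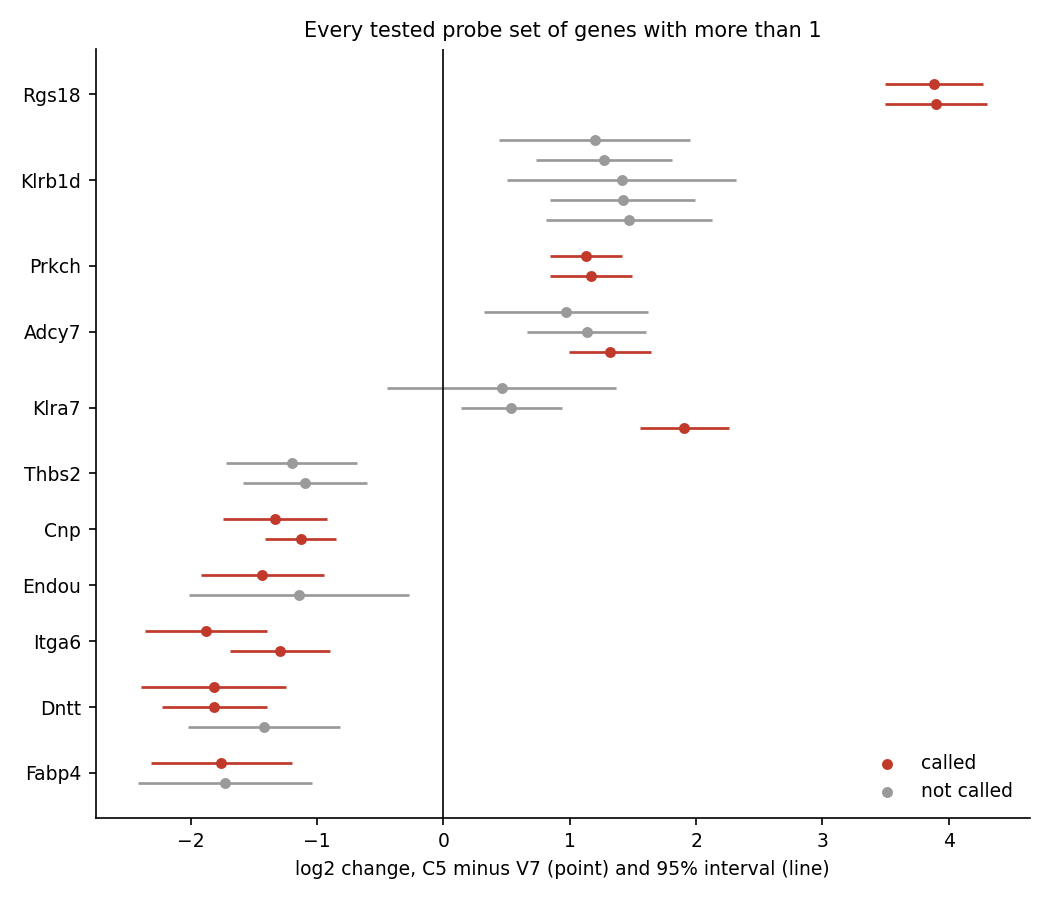
Log2 change of C5 minus V7 with 95% intervals for every tested probe set of those called or nearly called genes that had more than 1, in red where called and in grey where not. Probe sets of one gene lie close together for Rgs18, Prkch and Thbs2, and Klra7 is split between 1.91 and values of 0.46 and 0.54.

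WT2 was placed beside the pair to see where each called level lay. Of the 8 probe sets higher in C5, WT2 lay between the lines and nearer V7 for 3 (both of Rgs18 and 1419706_a_at), between them for P3h2, above C5 for 3 (Adcy7 and both of Prkch) and below V7 for Klra7. Of the 19 lower in C5, WT2 lay above V7 for 10, so that C5 had the lowest level of the 3 lines. These were Trib2, both probe sets of Cnp, Phlda1, Ypel2, Endou, Apod, Scel, 1433639_at and 1454901_at. The mean of WT2 lay below that of C5 for 6 of the 19, among them both called probe sets of Dntt and that of Fabp4, where V7 had the highest level and WT2 the lowest. Arhgap29 was among the 6 too, but C5 and WT2 overlapped below the added constant there and have no order. The signals of WT2 also overlapped those of V7 for the brighter probe set of Rgs18, for 1419706_a_at and for the dimmer of Cnp. They overlapped those of C5 for the brighter of Itga6. The order of WT2 and that line is open for these as well. For the last 3, both probe sets of Itga6 and that of Plekhg4, WT2 lay between the lines and nearer C5. These places are mean levels on the log2 scale, on probe sets selected for a difference that involves V7, and they carry no test.

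Beyond the called genes, 19 named genes differed by at least 2-fold without overlap and with a mean signal of at least 100 in the higher line but missed the adjusted p, 6 higher and 13 lower in C5. Of all 27010 tested probe sets, 3.62% differed by at least 2-fold, and 925 did so without overlap, at any signal and with or without a name. The 19 were drawn from 1528 named genes tested. A share under the same limits was not worked out for all probe sets. Besides Klrb1d, Gzma and Il27ra, the higher ones were Grb10, Amot and Trim36. Grb10, an adaptor that binds the insulin receptor, had 122 and 122 in C5, against 26.8 and 5.80 in V7. Its V7 aliquots differed widely from each other, and its change of 2.78 had an SE of 0.53 (adjusted p = 0.0994). Amot, a junction protein that binds the transcriptional coactivator YAP, had 224 and 158 in C5, against 85.3 and 66.5 in V7 (change 1.27, adjusted p = 0.227), and the ubiquitin ligase Trim36 had 172 and 204 in C5, against 66.4 and 95.2 in V7 (change 1.19, adjusted p = 0.297).

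On the lower side, the 10 with the smallest p included Cd5, given above, and Socs2, a feedback inhibitor of cytokine receptors. Socs2 had 98.7 and 75.0 in C5, against 225 and 217 in V7 on a probe set with shared probes (change −1.31, adjusted p = 0.0517). The histone deubiquitinase Usp3 had 97.9 and 77.2 in C5, against 202 and 202 in V7 (change −1.17, adjusted p = 0.0531). The secretory GTPase Rab3d had 39.2 and 38.0 in C5, against 97.5 and 121 in V7 (change −1.38, adjusted p = 0.0574). In these 3 genes the adjusted p lay just above the limit. That no C5 aliquot reached V7 was a condition for naming them here and adds no support. Thbs2, a matricellular thrombospondin, had 134 and 87.7 in C5, against 246 and 229.7 in V7 on its brighter probe set, with changes of −1.10 and −1.20 on its 2 probe sets (adjusted p = 0.12 and 0.108). The others had changes between −1.34 and −1.05: Gnpnat1 of hexosamine synthesis, the respiratory chain subunit Cox6a2, the dehydratase Sdsl, the splicing factor Rbmx and the autophagy adaptor Wdfy3, with adjusted p-values of 0.0974 to 0.236.

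Across the 21 pathway lists together, 129 of 533 genes had a named probe set that was tested, and 9 were called, 4 higher and 5 lower. This share of 6.98% stands against 0.1% of all probe sets and 1.14% of the 1935 tested probe sets with a gene name. Names exist where the authors had picked a probe set as differing between lines on these arrays, and lists that hold Rgs18, P3h2, Apod and Fabp4 were drawn up with earlier results known, so these shares are not independent evidence. The median change of the 129 genes was −0.03. For 79 of the 129 the 95% interval lay within 2-fold.

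No gene was called among the 4 tested cell cycle genes, 8 apoptosis regulators, 9 interferon response genes, 7 antigen presentation genes, 3 genes of endoplasmic reticulum stress and 3 of glycolysis. Their medians ran from −0.22 to 0.02. At an unadjusted p below 0.05, 1 apoptosis regulator and 1 stress gene were higher in C5 and 2 antigen presentation genes lower, where 3.64% of all tested probe sets were higher and 2.85% lower at that p. The members with the smallest p were Bcl2a1a, an antiapoptotic protein, at 679 and 900.3 in C5, against 476 and 446 in V7 (change 0.76, adjusted p = 0.231, shared probes), and the immunoproteasome subunit Psmb9, at 1003 and 1503 in C5, against 2021 and 2220.0 in V7 (change −0.78, adjusted p = 0.145). Of the interferon response genes, Rsad2 came nearest at −0.41 (adjusted p = 0.818), of the cell cycle genes the transcription factor Foxm1 at 0.32 (adjusted p = 0.895) and of the stress genes the sensor Atf6 at 0.30 (adjusted p = 0.706). Aldoc of glycolysis was at −0.28 (adjusted p = 0.986).

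Some members were bounded closely. The glucose transporter Slc2a3 had 5564 and 5329 in C5, against 5555 and 5559 in V7 on a probe set with shared probes, with an interval of −0.28 to 0.22. Actg1, a cytoplasmic actin, had an interval of −0.23 to 0.20, and the actin-binding peptide Tmsb10 one of −0.27 to 0.15, both with shared probes as well. The caspase inhibitor Xiap was at 1102 and 1074 in C5, against 1090.2 and 1064 in V7, with an interval of −0.25 to 0.28. The integrin-linked adaptor Parvg had an interval of −0.39 to 0.15 and the actin regulator Coro1a one of −0.34 to 0.21. In these 6 genes a 2-fold difference between C5 and V7 lies outside the interval.

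Promoters are shown because phorbol ester signalling reaches genes through AP-1, and the sequence it binds was looked for in the called genes. RefSeq promoters of build GRCm38.p6 were available for 10 of the 17 called genes, 14 promoters in all. Endou, Fabp4, Itga6, P3h2, Phlda1, Prkch and Rgs18 had no entry. In the 250 bases before each start, on both strands, TGACTCA (the AP-1 site) was present in 2 of the 14, 1 of the 3 promoters of Adcy7 and that of Scel. It was present in 4.46% of all 32851 promoters of that length. The 2 are printed 5′ to 3′ with the AP-1 letters in capitals, and both genes lie on the plus strand.
Adcy7 (chr8:88288816-88289065): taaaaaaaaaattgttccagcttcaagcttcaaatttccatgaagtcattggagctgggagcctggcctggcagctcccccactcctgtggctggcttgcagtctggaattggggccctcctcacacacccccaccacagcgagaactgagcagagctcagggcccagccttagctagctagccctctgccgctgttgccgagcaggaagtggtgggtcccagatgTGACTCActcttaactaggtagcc
Scel (chr14:103513091-103513340): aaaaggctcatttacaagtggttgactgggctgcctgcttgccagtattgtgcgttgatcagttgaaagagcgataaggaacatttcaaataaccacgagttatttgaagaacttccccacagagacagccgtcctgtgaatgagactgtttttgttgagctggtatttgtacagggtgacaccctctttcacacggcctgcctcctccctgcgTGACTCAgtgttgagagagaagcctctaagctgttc
The first base of the match lies 24 bases before the start of Adcy7, which was higher in C5, and 36 bases before that of Scel, which was lower. AGATAA, which GATA factors bind, was present in Dntt and 1 promoter of Klra7, against 9.99% of all promoters. TGACGTCA (the cAMP response element), CACGTG (an E-box) and CCGGAAG (an ETS site) were in none of the 14, against 1.55%, 6.02% and 6.91% of all. None of the 5 motifs contains another. A match is a description of letters and not a site of binding.

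The authors' own list for this pair was set beside these calls. The authors' deposited table names 102 probe sets, 20 up and 82 down in C5, with ratios of 2 to 16.47 and a median of 2.38. Of these, 88 had an adjusted p below 0.05 there. That list states 141 tests, against 27010 here, so its adjusted p-values and those here are not on the same footing. Of the 100 tested here, 22 were called and 91 had an unadjusted p below 0.05, against 6.49% of all tested probe sets. All 100 had the same direction. Neither the direction nor the high share with a small p is independent evidence, because the authors chose the list on these same arrays. Of the 27 calls, 22 (81.5%) were on the authors' list and 5 were not: 1419706_a_at, 1454901_at, 1447862_x_at, the dimmer probe set of Prkch and the brightest of Klra7. The sizes differ for some probe sets, among them P3h2 and Arhgap29, each below the added constant in 1 line, and Scel and Apod. The authors' deposited table gives a ratio of 2.99 for Scel and 3.12 for Apod, while the ratios of mean signals here were 7.38 and 4.52. It gives 5.63 for P3h2 and 6.44 for Arhgap29 (the authors' deposited table), while the mean signals here were 194 in C5 and 2.77 in V7 for P3h2, and 1.69 in C5 and 83.3 in V7 for Arhgap29. For Rgs18, bright in C5 and well above the constant in V7, the authors' deposited table gives 16.47 and 16.25, and the mean signals here had ratios of 15.4 on both probe sets.

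**Figure D5:**
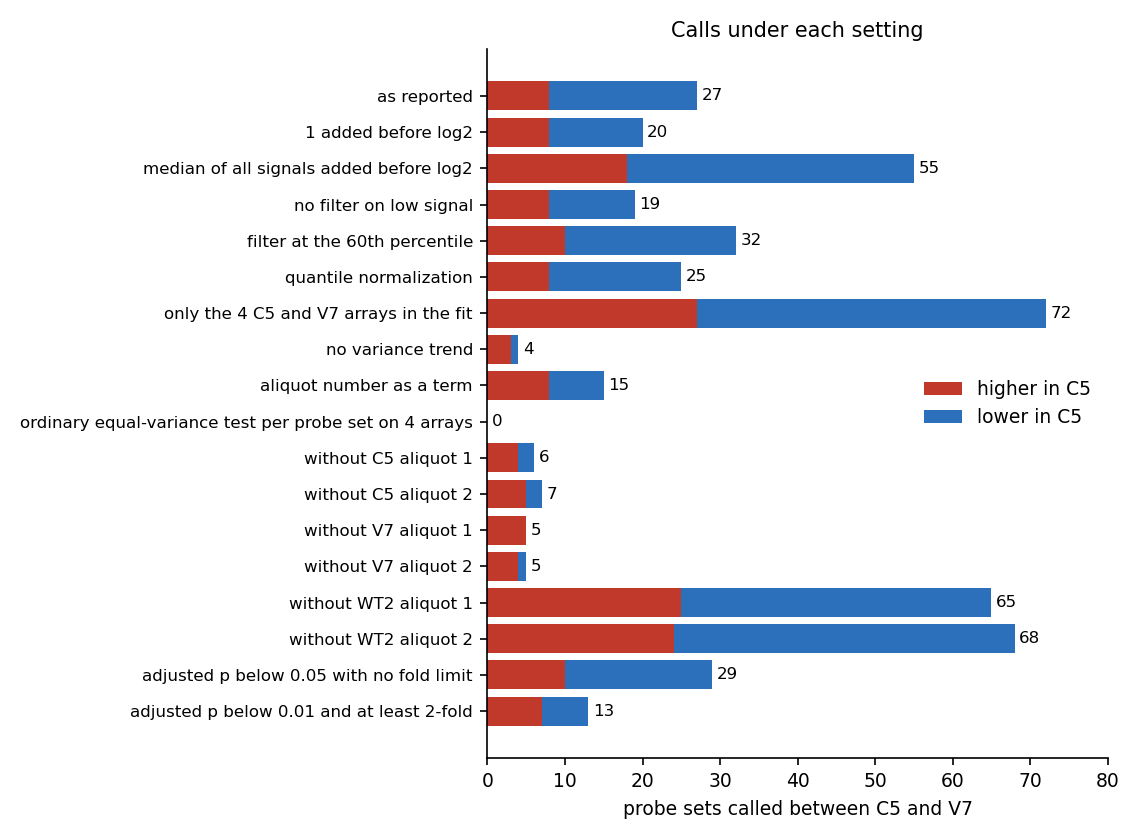
Number of probe sets called between C5 and V7 under the setting as reported and each alternative, stacked by direction with red for higher in C5 and blue for lower, and the total at the end of each bar. The count is 27 as reported, 72 with the C5 and V7 arrays alone, 4 without the variance trend and 0 with an ordinary test.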

How the data were processed

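Transcript levels were measured on 6 arrays, 2 each of C5, V7 and WT2, grouped by the line in the labels. The value table deposited by the authors gives each probe set a linear intensity on each array, from MAS5 per the submitters' processing notes, with no version. Per the file headers, the authors' deposited tables of differing probe sets hold a fold ratio, log2 means and the authors' p-values before and after adjustment. They served for gene names and the comparison with the authors' list.

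Of 45101 probe sets, 64 controls were left out. A probe set was tested if its signal, averaged over the arrays, exceeded 11.7, the 40th percentile. A probe set dim in both C5 and V7 could therefore pass through its signal in WT2. The constant added before log2 was the 25th percentile of all signals. All 6 arrays entered one fit in limma 3.58.1 (R 4.3.3), in which each line had its own mean and the prior variance followed the signal (3 residual degrees of freedom, 8.46 from the prior). Tests were two-sided. The fit was also run on simulated data with planted changes, whose outcome is not reported here and supports no statement above. Joins and summaries used pandas 2.3.3, numpy 2.4.6 and scipy 1.17.1 in Python 3.11.15, and plots used matplotlib 3.10.9. The number of arrays limits the precision.

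A gene name was taken from the authors' deposited tables, which name 2451 probe sets. Another 42587 had no name. Symbols were added through accessions (448 probe sets) or by hand from the name (144). The brightest probe set given a gene's symbol stands for it in the lists. Genes named were those called, the 2 largest changes each way among called probe sets without a name, up to 10 uncalled genes each way with the smallest p at 2-fold or more and without overlap, and members of the 21 pathway lists and 7 marker lists with the smallest p or the narrowest intervals. The genes Rasgrp1, Ptk2, Ptk2b, Prkcq and Cd44 were named as genes of the study group's earlier work. Members, lists and tests were chosen with earlier results of these data known. Of the marker lists, T cell had 4 tested genes, natural killer 1 and fibroblast 2, none of them called, and the lists for B cells, macrophages, epithelium and red cells had no named probe set.

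The aliquot numbers were checked as pairs. Deviations of same-numbered aliquots from their line means correlated at 0.04 for C5 with V7, 0.003 for C5 with WT2 and −0.04 for V7 with WT2, so the numbers were not taken to pair the arrays. Alternatives changed the constant, filter, scaling, arrays, variance prior, aliquot term, test and threshold.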

Additional observations from a re-analysis of the deposited data

How the results depend on the processing

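The count of 27 calls was within 1.5 times of the reported one with 1 added before log2 (20), without the filter (19), with a filter at the 60th percentile (32), after quantile normalization (25) and without the fold limit (29). It was 55 with the median of all signals added (18 higher and 37 lower in C5), 72 with only the C5 and V7 arrays in the fit (27 higher, 45 lower; 26 of the 27 calls remained) and 13 at an adjusted p below 0.01. It was 4 without the variance trend (3 higher, 1 lower) and 0 with an ordinary equal-variance test on 4 arrays, where 1953 probe sets had an unadjusted p below 0.05. With the aliquot number as a replicate block it was 15 (8 higher, 7 lower), and the numbers were not taken to pair the arrays. Leaving out each array in turn gave 5 to 68 calls; a line with 1 array left was assumed to vary like the others.

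The same settings were applied, after the data had been seen, to the 9 called list genes and the 22 called probe sets of the authors' list. The list genes numbered 1 without the variance trend, 0 with the ordinary test and 3 to 12 with an array left out. On the authors' list, calls numbered 40 with the median added, 51 with only the C5 and V7 arrays, 3 without the variance trend, 12 with the replicate block, 0 with the ordinary test and 3 to 50 with an array left out. The median change over all probe sets moved by less than the spread between aliquots in each setting run for it.

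Of 719 changes of 48 named probe sets across these settings, none reversed direction, 169 lost a call, 47 gained one and 503 stayed on the same side of the limits. For 2 called probe sets, P3h2 and Arhgap29, a line was below the added constant, so the size of the change depends on it. With 2 arrays per line from 1 clone each, the size of most differences is bounded only within the intervals given.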

Other observations

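Probe sets deposited as immunoglobulin kappa chain variable 1 or 28 were dimmer in C5, and they were singled out after their values had been seen. They are 5 in number, and all 5 gave lower signals in both C5 aliquots than in both V7 aliquots, where 17.4% of all tested probe sets did so. Probe set 1452463_x_at had 1530 and 1794 in C5, against 3760 and 3843 in V7, and it was called (log2 change −1.20, SE 0.18, limma adjusted p = 0.0397). The other 4 had changes of −1.02, −0.83, −0.79 and −0.70 and were not called, with adjusted p-values of 0.086 to 0.551. In WT2 the called probe set was at 1.83 and 4.79. Of the 5, 4 have probes shared between transcripts, so they are not separate measurements, and named markers of B cells were not available. Whether cells other than the lymphoma line took part was not tested.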
